A study of Mus musculus with 14 samples.

Results

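Mitosis and G2/M genes encode the proteins that carry a cell from the end of DNA replication through chromosome segregation and division. They are described here in 14 tumours as 60 listed genes, chosen by symbol from a list covering CDK1 and its cyclins, mitotic kinases, the spindle checkpoint, the kinetochore, kinesins, cytokinesis, anaphase and chromosome structure. All 60 were found among the 18481 genes of the deposited table, 59 under their current symbol and Sgo1 under its older symbol Sgol1, and all 60 passed the filter on low values.

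The tumours grew from SMM102, a mouse melanoma cell line, injected subcutaneously at 2 sites per mouse into C57BL/6J females aged 6 to 8 weeks. Treatment started at tumour volumes of 150 to 300 mm3. The treated mice received PLX4032 (vemurafenib, which inhibits mutant BRAF, a kinase of the MAPK pathway) by intraperitoneal injection, 50 mg/kg on each of 5 days a week. Their tumours were collected after 3 days (n = 2), 6 days (n = 2), 18 days (n = 2) and 27 days (n = 4). Controls were collected after 3 days (n = 2) and 6 days (n = 2). The labels call the controls untreated, while the design text gives them vehicle. No control was taken after day 6, so treatment and time cannot be told apart at days 18 and 27. In the labels 1 animal number stands both for a day 6 control and for a day 3 PLX4032 tumour. The labels of the day 18 tumours end only in 1 and 2, so whether they came from 1 mouse or 2 is unknown. On day 27 the 4 tumours belonged to 2 mice, both flanks of each, and the columns are not tied to mice. They entered as 4 samples, so p-values that include day 27 are too small, and the shared estimate of the spread rests on them as well.

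RNA was taken from whole tumours, so host cells are included, and of 12 melanocyte markers 6 had a value. Across the 14 tumours Pmel ran from 0.338 to 1.05, Sox10 from 0.0339 to 2.25 and Mitf, the melanocyte master regulator, from 1.56 to 10.4. Mlana, Dct, Tyr, Tyrp1, Gpr143 and Oca2 were looked up by symbol and not found in the deposited table. Expression is given in the authors' deposited values, named TPM, which are scaled per transcript length. Changes are log2 differences of value + 1, which understate the change of genes with low values.

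In a dividing cell, cyclin B bound to CDK1 starts mitosis, Polo-like and Aurora kinases build the spindle, and the spindle checkpoint holds the chromosomes until every kinetochore is attached. CDC20 then directs the anaphase-promoting complex to destroy cyclin B and securin, which frees separase to split the sister chromatids. Transcripts of these genes accumulate in G2 and mitosis, driven by B-MYB, FOXM1 and the MuvB complex, and in resting cells they are held down by the DREAM complex through a promoter element called the CHR.

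On day 3 of PLX4032 the module was low as a block. Of the 60 genes, 59 were lower in the PLX4032 tumours than in the controls and Pttg1, which encodes securin, was higher, by limma's moderated test at an adjusted p threshold of 0.05. Over all 15841 genes tested, 20.8% were called lower and 24.9% higher in the same comparison. The median change of the 60 was -1.75 log2 units, a 3.37-fold lower level, while the median of all tested genes was 0.02. For each of the 59 genes both PLX4032 tumours lay below all 4 controls, an arrangement found in 27.8% of all tested genes. In bulk tumours fewer dividing cells and less RNA per cell cannot be told apart.

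By day 6 of treatment the module was high again. Compared with day 3 of treatment, 58 of 60 genes were higher on day 6, where 10.9% of all genes were called higher, with a median change of 1.67 (3.19-fold). Against the controls 0 of 60 were called on day 6, where 1.43% of all genes were called lower and 4.49% higher. On day 18 it was 0 of 60, where 2.5% of all genes were called lower and 5.42% higher. On day 27 5 were called lower, where 3.09% of all genes were, and none of the 5 was called with the day 27 tumours averaged in pairs. The plot of all members by tumour shows the course over the days.

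**Figure D1:**
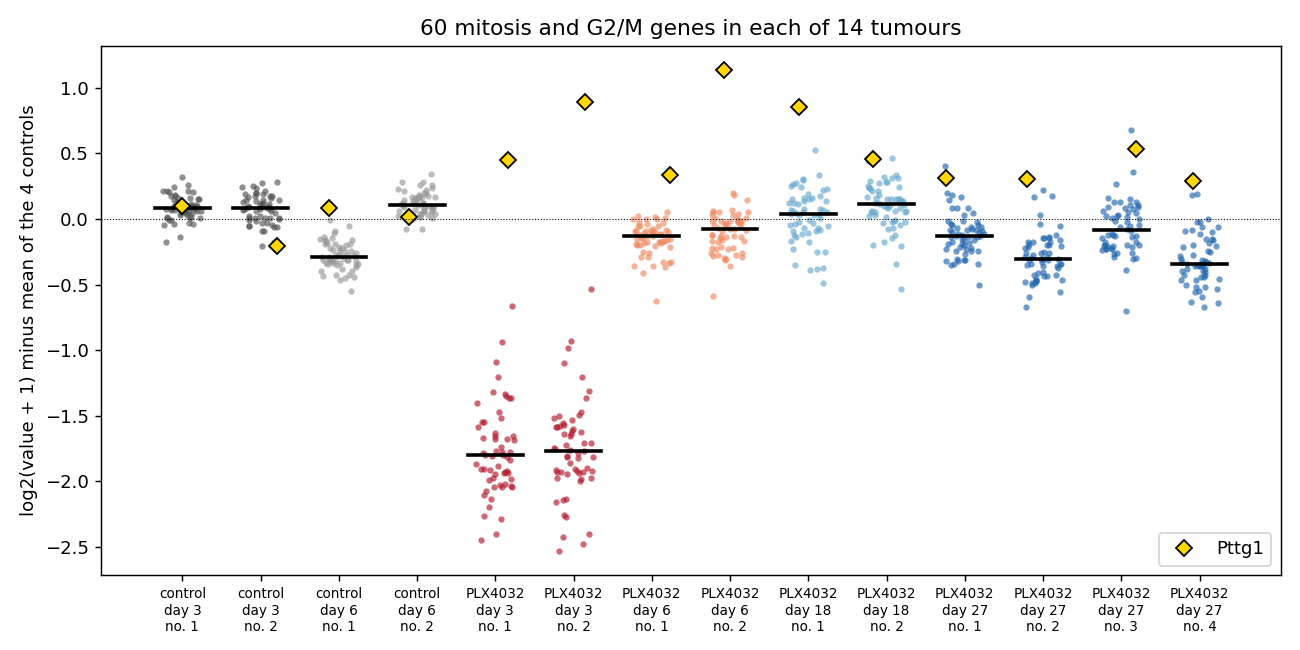
Each point is 1 of the 60 genes in 1 tumour, as log2(value + 1) minus the mean of the 4 controls, and the bar is the median of the 60. The medians were -1.80 and -1.77 in the PLX4032 tumours of day 3, between -0.34 and 0.11 in the other PLX4032 tumours and between -0.29 and 0.11 in the controls. Yellow diamonds mark Pttg1, above 0 in all 10 treated tumours.

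Because the 59 genes fell together, their promoters were read for 2 sequence words. The CHR was searched as TTTGAA or TTCGAA and the box bound by NF-Y as CCAAT, on both strands, in windows of 300 bases that start 250 bases before the RefSeq transcription start. Windows were at hand for 49 of the 60 genes. A CHR word was present in 39 of 49 (79.6%), against 14.1% of the 10924 tested genes with a window and 19.4% of all 27025 windows. Within 50 bases of the start it was present in 71.4% of the members, 3.54% of the tested genes and 5.29% of all windows. These shares depend on the start used: GENCODE M21 lists a start within 50 bases of the RefSeq start for 39 of the 49 members. CCAAT was found in 75.5% of the members, 38.6% of the tested genes and 37.9% of all windows, and both words in 67.3%, 5.98% and 7.70%. These are matches of letters and not measured binding sites, and the members were listed for their function in mitosis. Of 62 other mitotic genes, 53.2% held a CHR word, while of 30 G1/S and DNA replication genes 16.7% did.

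The stretch from 150 to 10 bases before the start is given for 6 genes (RefSeq, GRCm38.p6, 5′ to 3′ on the gene's strand), with CHR and CCAAT words of either strand in capitals. Cdk1, Top2a and Ube2c are the most abundant members of their roles with a CHR upstream of the RefSeq start. Bub3 is another, left out because GENCODE M21 lists a start 148 bases farther upstream, so that almost all of its stretch would lie in a transcript. GENCODE M21 also lists starts up to 26 bases farther upstream for Cdk1 and up to 31 for Ube2c. From those starts the CHR word nearest the RefSeq start would lie in the transcript. Cdc20, Kif11 and Mki67 were chosen after their values were seen, as genes described below.
Cdk1, chr10:69352922-69353062, minus strand: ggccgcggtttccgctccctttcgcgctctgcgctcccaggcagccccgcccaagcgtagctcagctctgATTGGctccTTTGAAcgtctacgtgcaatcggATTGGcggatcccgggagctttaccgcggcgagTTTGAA
Top2a, chr11:99024199-99024339, minus strand: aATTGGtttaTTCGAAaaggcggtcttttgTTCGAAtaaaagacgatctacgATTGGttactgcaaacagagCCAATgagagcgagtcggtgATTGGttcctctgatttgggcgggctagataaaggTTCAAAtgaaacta
Ube2c, chr2:164769779-164769919, plus strand: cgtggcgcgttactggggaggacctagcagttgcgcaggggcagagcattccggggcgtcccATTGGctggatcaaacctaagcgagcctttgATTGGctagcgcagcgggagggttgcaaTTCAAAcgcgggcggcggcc
Cdc20, chr4:118437353-118437493, minus strand: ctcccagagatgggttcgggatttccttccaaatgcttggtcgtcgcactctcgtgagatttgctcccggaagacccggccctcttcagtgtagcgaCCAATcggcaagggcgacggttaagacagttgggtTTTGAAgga
Kif11, chr19:37376232-37376372, plus strand: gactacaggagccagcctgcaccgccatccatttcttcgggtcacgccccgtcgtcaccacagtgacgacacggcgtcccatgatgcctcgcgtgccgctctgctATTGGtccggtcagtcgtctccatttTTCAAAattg
Mki67, chr7:135716389-135716529, minus strand: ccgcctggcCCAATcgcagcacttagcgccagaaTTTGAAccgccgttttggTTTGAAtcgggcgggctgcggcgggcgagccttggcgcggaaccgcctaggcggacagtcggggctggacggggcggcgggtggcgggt
In Cdk1, Ube2c, Cdc20 and Kif11 a CHR word lies close to the RefSeq start with a CCAAT word upstream of it, TTCAAA being TTTGAA read on the other strand. Top2a holds several of each word, and the CHR words of Mki67 lie farther upstream.

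**Figure D2:**
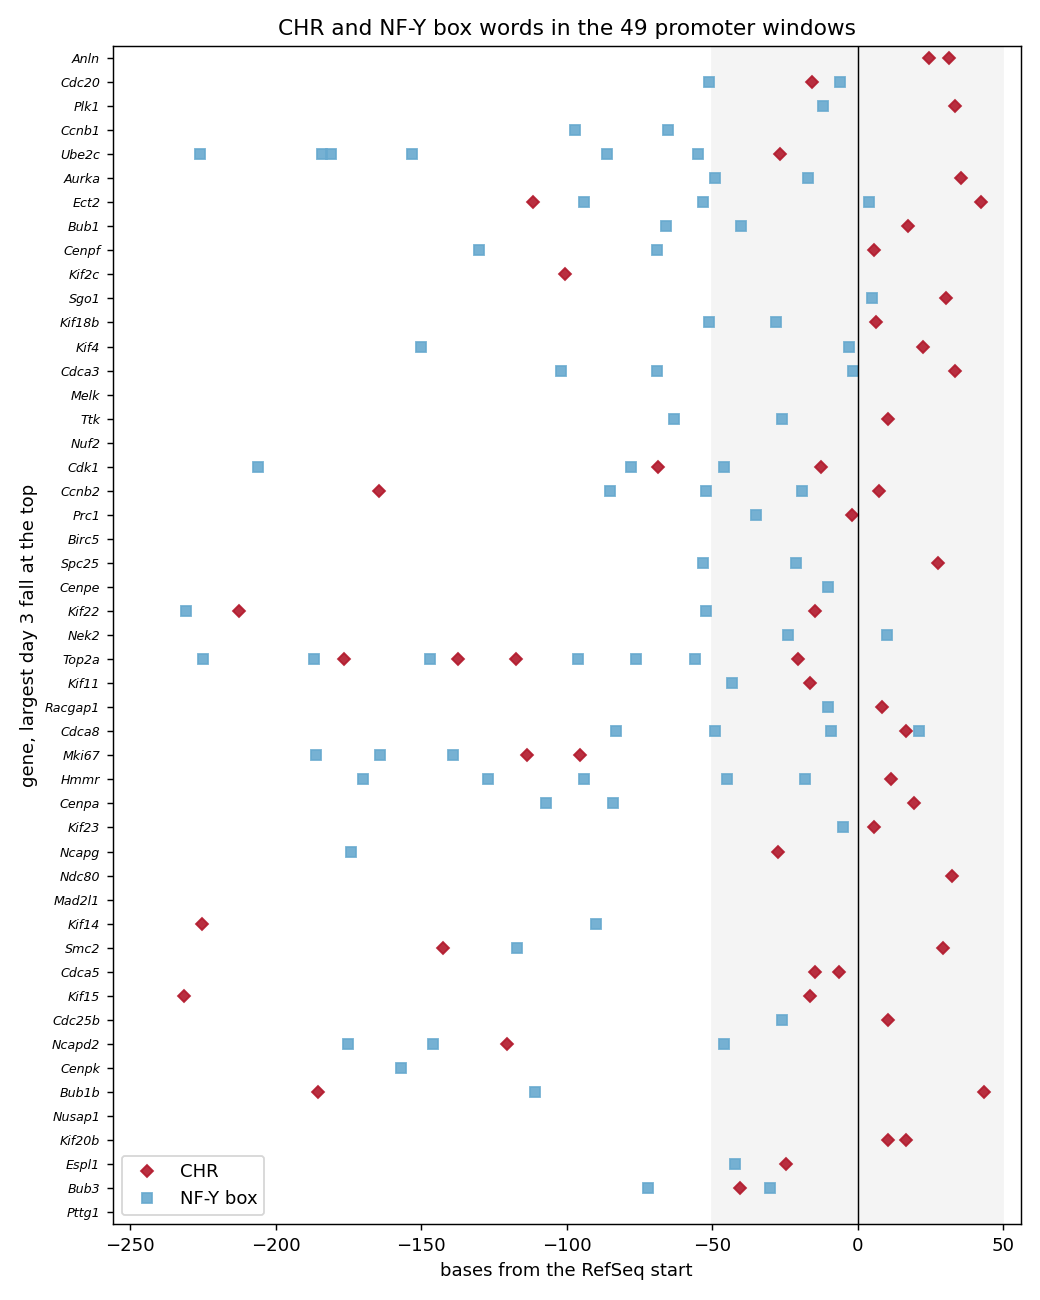
Positions of CHR words (red diamonds) and of the CCAAT word (blue squares, labelled NF-Y box) in the windows of 49 members, in bases from the RefSeq start, with the genes ordered by their day 3 change. The grey band is the stretch within 50 bases of the start, where 71.4% of these windows hold a CHR word.

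The median day 3 change was -1.75 in the 39 genes with a CHR word and -1.76 in the 10 without one. Pttg1 was among 6 members that held neither word in the window, and the median day 3 change of these 6 was -1.73. The others were Melk, Nuf2, Birc5, Mad2l1 and Nusap1, and all of these fell. For Pttg1 GENCODE M21 lists other starts up to 270 bases upstream of the start used, so the window covers only part of its promoter region.

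Among cyclins, CDK1 and its activators, all 6 genes fell on day 3, with changes from -1.43 to -2.35 and a median of -1.92. Cdk1, the kinase that drives entry into mitosis (chr10:69335146-69352938, GRCm38), was at 66.8 and 72.7 in the PLX4032 tumours and at 267, 286, 219 and 268 in the controls. The groups stood far apart, and the change was -1.88 (SE 0.13, adjusted p = 7.11e-06). Ccnb1, the cyclin B1 partner of CDK1, showed the deepest fall of the role at -2.35 (SE 0.13, adjusted p = 5.44e-06). The A-type cyclin Ccna2, the B-type cyclin Ccnb2 and Cdc25c, a further CDK1-activating phosphatase, changed by -1.97, -1.87 and -1.98. Cdc25b, a phosphatase that activates CDK1, fell least at -1.43 (SE 0.19, adjusted p = 0.00028), with 35.8 and 31.4 in the PLX4032 tumours and 92.4, 112, 62.4 and 110.5 in the controls. Control tumour 1 of day 6 was well below the other controls for Cdc25b, yet still above both treated tumours.

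The 5 mitotic kinases all fell, by a median of -1.92. Plk1, the Polo-like kinase that acts from centrosome maturation to cytokinesis (chr7:122159439-122169873), was at 12.7 and 11.6 in the PLX4032 tumours and at 82.6, 63.0, 54.1 and 66.9 in the controls. Its change of -2.35 (SE 0.15, adjusted p = 5.61e-06) was the largest of the kinases, and Aurka, which matures centrosomes and builds the spindle, followed with -2.09. The remaining kinases are Melk, Ttk (the MPS1 kinase of the spindle checkpoint) and Nek2 (which separates centrosomes), with changes of -1.92, -1.91 and -1.75. Foxm1, a transcription factor for G2/M genes and itself a member, was at 18.7 and 21.3 against 70.6, 75.0, 55.0 and 71.8, a change of -1.71 (SE 0.14, adjusted p = 1.82e-05). Mki67, the antigen that pathologists stain to count cycling cells, was at 14.3 and 15.7 in the PLX4032 tumours and at 52.3, 49.7, 43.8 and 60.4 in the controls. It changed by -1.71 (SE 0.12, adjusted p = 9.84e-06), close to the median of the module.

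**Figure D3:**
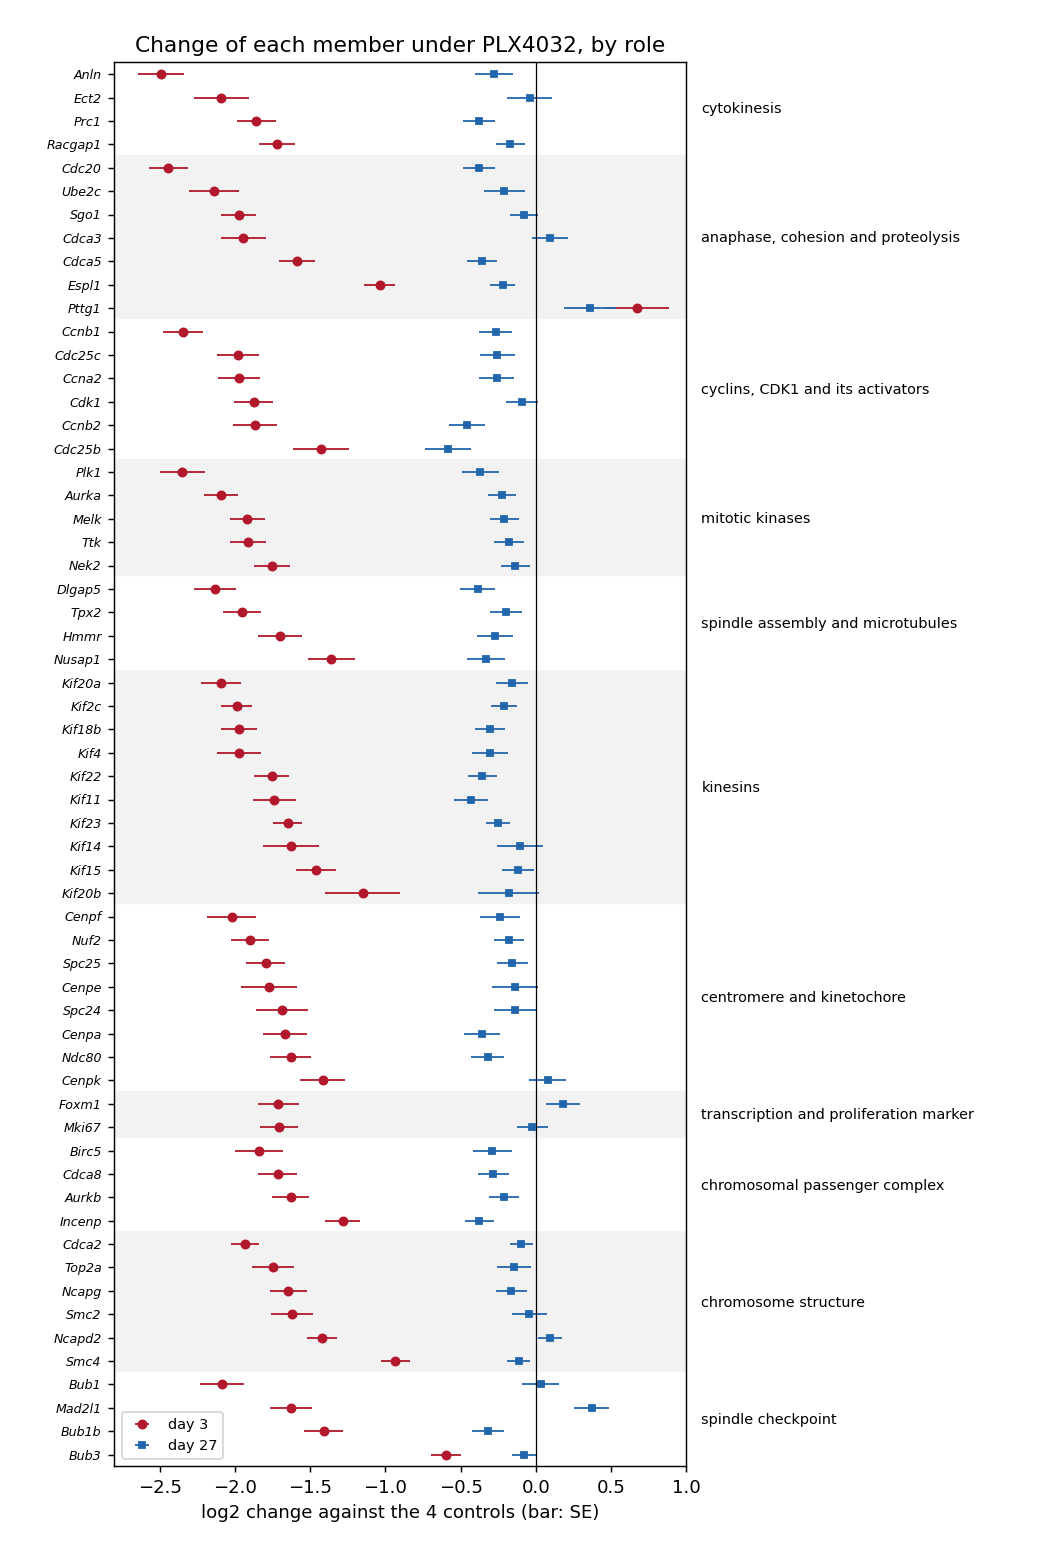
Log2 change of each member against the 4 controls on day 3 (red circles) and day 27 (blue squares), with bars of 1 SE, grouped by role. On day 3 all roles sit well left of 0, with role medians from -1.97 for cytokinesis to -1.52 for the spindle checkpoint, and Pttg1 alone lies right of 0. On day 27 most members sit slightly left of 0.

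All 4 spindle checkpoint genes fell, over a wide range. Bub1, a checkpoint kinase at the kinetochore, changed by -2.09, Mad2l1, which encodes the MAD2 inhibitor of CDC20, by -1.63, and Bub1b, which encodes BUBR1, by -1.41. Bub3, the WD-repeat protein that brings BUB1 and BUBR1 to kinetochores (chr7:131560222-131571895), was at 62.5 and 68.5 in the PLX4032 tumours and at 100.2, 104, 93.4 and 101 in the controls. These groups also did not overlap, but the fall was small at -0.60 (SE 0.10, adjusted p = 0.000862), the smallest among the 59. Bub1 and Bub3 work in a common complex, and their 95% intervals of -2.41 to -1.76 and -0.82 to -0.38 were far from each other, although the difference between genes was not tested.

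All 4 genes of the chromosomal passenger complex fell. Birc5, which encodes survivin and anchors the complex to the centromere, was at 34.9 and 36.2 in the PLX4032 tumours and at 146, 125, 116 and 135 in the controls, a change of -1.84 (SE 0.16, adjusted p = 2.52e-05). The kinase gene Aurkb changed by -1.63, Cdca8 (borealin) by -1.72 and the scaffold gene Incenp by -1.28. At the centromere and kinetochore 8 of 8 genes fell, with a median of -1.73 and a range from -1.42 to -2.02. Cenpa, the histone H3 variant that marks centromeres, was at 41.2 and 49.7 in the PLX4032 tumours and at 152, 174, 106 and 160.1 in the controls. The test gave -1.67 (SE 0.15, adjusted p = 2.92e-05) for it. The 4 subunits of the NDC80 complex, which grips microtubules, changed by -1.63 (Ndc80), -1.90 (Nuf2), -1.69 (Spc24) and -1.80 (Spc25). Cenpe, a kinesin at the kinetochore, Cenpf, a large kinetochore protein, and Cenpk, a subunit of the inner kinetochore, changed by -1.77, -2.02 and -1.42.

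The 10 kinesins, motors that move chromosomes and slide spindle microtubules, fell without exception, from -1.15 for Kif20b to -2.09 for Kif20a. Kif23, a motor of the central spindle, was the most abundant of them. It was at 26.2 and 26.5 in the PLX4032 tumours and at 90.6, 81.9, 76.0 and 91.9 in the controls, with a change of -1.65 (SE 0.09, adjusted p = 5.44e-06). Kif11, the Eg5 motor that pushes spindle poles apart, was at 4.10 and 4.71 against 18.7, 18.2, 13.2 and 18.5, a change of -1.74 (SE 0.14, adjusted p = 1.72e-05). Kif4, Kif22, Kif15, Kif18b and Kif2c changed by -1.97, -1.76, -1.46, -1.97 and -1.99. Kif20b and Kif14 had the lowest levels of the kinesins, with means of 1.57 and 1.26 in the PLX4032 tumours and 4.83 and 6.10 in the controls, where the added 1 shrinks a log2 change most. Of the 4 genes of spindle assembly, Tpx2, the activator of Aurora A, was at 14.6 and 15.3 in the PLX4032 tumours and at 60.5, 67.3, 49.8 and 66.6 in the controls. Its change was -1.95 (SE 0.13, adjusted p = 5.61e-06), and Dlgap5, Hmmr and Nusap1, all microtubule-associated, changed by -2.13, -1.70 and -1.36.

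Cytokinesis genes had the deepest median of all roles, -1.97. Anln, which encodes anillin, a scaffold of the contractile ring (chr9:22332012-22389188), was at 21.5 and 20.3 in the PLX4032 tumours and at 111, 144, 97.2 and 142 in the controls. This was the largest fall of the module, -2.49 (SE 0.16, adjusted p = 5.61e-06), a 5.62-fold lower level. Ect2, which activates RhoA at the division plane, Prc1, which bundles the central spindle, and Racgap1, the partner of Kif23, changed by -2.09, -1.86 and -1.72. Among 6 genes of chromosome structure, Top2a, the topoisomerase that untangles sister chromatids, was at 56.9 and 59.8 in the PLX4032 tumours and at 212, 215, 159 and 211 in the controls, a change of -1.75 (SE 0.14, adjusted p = 1.61e-05). The condensin subunits differed in size of change. Smc4 was at 43.2 and 43.5 in the PLX4032 tumours and at 87.1, 81.9, 77.7 and 88.8 in the controls, a change of -0.93 (SE 0.10, adjusted p = 7.72e-05), while its partner Smc2 changed by -1.62 and the further subunits Ncapg and Ncapd2 by -1.65 and -1.42. Cdca2, which targets a phosphatase to chromosomes, changed by -1.93.

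Of the 7 genes of anaphase, cohesion and proteolysis, 6 fell and Pttg1 rose. Cdc20, the activator of the anaphase-promoting complex (chr4:118432901-118437352), was at 22.9 and 21.8 in the PLX4032 tumours and at 146, 126, 103 and 132 in the controls, a change of -2.44 (SE 0.13, adjusted p = 5.14e-06). Ube2c, the ubiquitin-conjugating enzyme of that complex, was at 37.6 and 37.6 against 182, 194, 125 and 184, a change of -2.14 (SE 0.17, adjusted p = 1.52e-05). Sgo1 and Cdca5, which protect cohesion between sister chromatids, and Cdca3, a partner of the SCF ubiquitin ligase, changed by -1.98, -1.59 and -1.94. Espl1, which encodes separase, fell by 1.04 on the log2 scale, less than most members.

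Pttg1, which encodes the separase inhibitor securin (chr11:43420250-43426251), went the other way. It was at 38.9 and 53.4 in the PLX4032 tumours of day 3 and at 30.4, 24.4, 30.1 and 28.7 in the controls. Both treated tumours were above every control, as in 31.2% of all genes, with a rise of 0.67 (SE 0.21, adjusted p = 0.0245) or 1.59-fold. The call rests on few tumours. Without control tumour 2 of day 3 the adjusted p was 0.0666, without control tumour 2 of day 6 it was 0.0526, and without PLX4032 tumour 2 of day 3 the change was 0.45 with an adjusted p of 0.234. On the later days Pttg1 was at 35.9 and 63.4 on day 6, 52.0 and 39.3 on day 18 and 35.5, 35.1, 41.3 and 34.9 on day 27. All 10 treated tumours therefore lay above all 4 controls, but the changes of 0.74, 0.66 and 0.36 had adjusted p-values of 0.0647, 0.0787 and 0.261. How many of all genes show this arrangement of all 10 tumours was not counted.

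**Figure D4:**
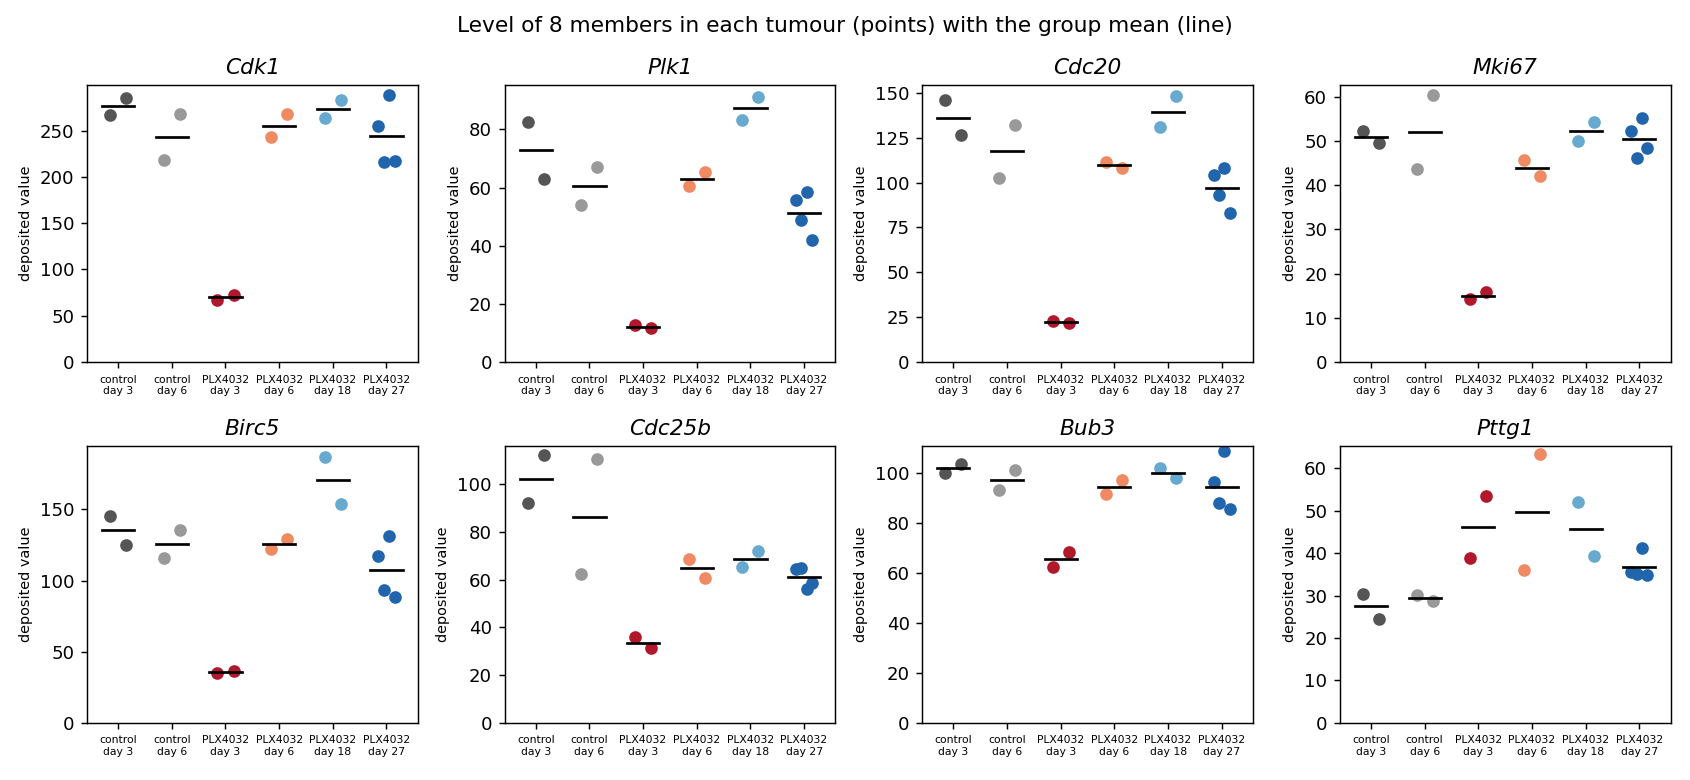
Deposited values (scaled per transcript length, axes from 0) of 8 members in each tumour, with the group mean as a line. Cdk1, Plk1, Cdc20, Mki67 and Birc5 are low in both PLX4032 tumours of day 3 only, Bub3 dips slightly, Cdc25b lies between 56.1 and 72.1 from day 6 on, and Pttg1 is above the controls in every treated tumour.

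The treatment effect changed between day 3 and day 6, each set against the controls of its own day. For 58 of 60 genes the difference of the effects was above 0 and called, where 6.06% of all genes were, with a median of 1.88. This median ran from 1.69 to 2.06 when single tumours were left out. It includes the change between the controls, whose median was -0.16, and 0.01 without control tumour 1 of day 6. Plk1 had the largest difference, 2.54 (SE 0.24, adjusted p = 0.000479). Levels of Plk1 in PLX4032 tumours were 12.7 and 11.6 on day 3, 60.6 and 65.3 on day 6, 83.2 and 91.3 on day 18 and 55.5, 48.8, 58.3 and 42.1 on day 27, against 82.6, 63.0, 54.1 and 66.9 in the controls. Pttg1 and Kif20b were not called, with differences of -0.04 (adjusted p = 0.962) and 0.87 (adjusted p = 0.21). The same 2 genes were not called between day 6 and day 3 of treatment.

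On day 6 the median change of the 60 genes against the controls was -0.09, and the tumour medians were -0.13 and -0.07. None of the 60 was called by limma on day 6, and 6 had an unadjusted p under 0.05, where 22.6% of all genes did. The comparison called 1.43% of all genes lower and 4.49% higher. Cdc25b was the furthest down, at 68.9 and 60.8 against 92.4, 112, 62.4 and 110.5 in the controls, with -0.50 (adjusted p = 0.136). Anln and Cdca5 were below every control in both tumours, at -0.36 and -0.27, also not called, and Pttg1 was above every control. Such a lack of overlap was found in 12.8% of all genes for lower values and in 16.2% for higher ones. Without control tumour 1 of day 6, which was the lowest control for 57 of the 60 genes, 7 genes were called lower on day 6, as were 3.97% of all genes. This tumour had a median of -0.29 against the mean of the controls, when the other controls lay between 0.08 and 0.11. Between control day 6 and control day 3 limma called 0 of 60 genes, as it called 0% of all genes, with 2 members at an unadjusted p under 0.05 (5.59% of all genes) and a median of -0.16.

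Day 18 gave no call in either direction by limma, with 7 of 60 genes at an unadjusted p under 0.05. Of all genes 28.3% had such a p, and 2.5% were called lower and 5.42% higher. The median was 0.08, close to the 0.07 of all tested genes, and it was -0.01 after quantile normalisation. In 9 genes both tumours were above all controls, an arrangement found in 24.9% of all genes. The 5 mitotic kinases had a median of 0.29 and were all above 0, with 0 called. Birc5 was at 187 and 154 against 146, 125, 116 and 135 in the controls (0.38, adjusted p = 0.143), and Plk1 at 0.40 had an adjusted p of 0.117. Cdc25b remained at 65.3 and 72.1, a change of -0.42 that was not called (adjusted p = 0.169). Without control tumour 1 of day 6, 2 genes were called lower on day 18, Cdc25b among them, as were 4.27% of all genes.

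On day 27 the module sat slightly below the controls. The median was -0.21, 53 of 60 genes were below 0, 28 had an unadjusted p under 0.05 (21.6% of all genes did), and 5 were called lower by limma where 3.09% of all genes were, with 0 called higher against 3.58%. The 5 were Cdc25b at -0.59 (SE 0.15, adjusted p = 0.0452), Ccnb2 (cyclin B2) at -0.46 (SE 0.12, adjusted p = 0.0435), Kif11 at -0.43 (SE 0.11, adjusted p = 0.049), Incenp at -0.38 (SE 0.10, adjusted p = 0.0429) and Kif22, a motor on chromosome arms, at -0.36 (SE 0.09, adjusted p = 0.0497). Incenp was at 47.4, 39.5, 47.6 and 37.7 in the PLX4032 tumours of day 27 and at 66.4, 57.6, 48.1 and 52.8 in the controls. Of the 5 it was the only gene whose groups did not overlap. Ccnb2 was at 71.9, 60.4, 77.9 and 57.2 against 97.5, 95.5, 73.5 and 103, Kif11 at 13.2, 11.2, 13.7 and 11.4 against 18.7, 18.2, 13.2 and 18.5 and Kif22 at 48.0, 42.8, 46.1 and 41.2 against 59.9, 65.2, 44.9 and 60.9. In each of these 3, and in Cdc25b, the overlap came from control tumour 1 of day 6. Cdc25b was at 64.4, 65.1, 56.1 and 58.7 against 92.4, 112, 62.4 and 110.5 in the controls. These calls stand at the threshold: the count ran from 0 to 15 when single tumours were left out, with 15 called without control tumour 1 of day 6, where 3.5% of all genes were. It was 0 without any other single control, and 0 without tumour 1, 2 or 4 of day 27, and 3 without tumour 3. It was also 0 when the day 27 tumours were averaged in pairs.

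By role the day 27 medians ran from -0.30 for spindle assembly to 0.08 for Foxm1 and Mki67. Some members were at or above the controls on day 27. Mad2l1 was at 85.0, 74.9, 103 and 72.8 against 68.7, 67.6, 52.9 and 68.5 in the controls, with all 4 tumours above every control, 0.37 and an adjusted p of 0.0827. Foxm1 was at 77.7, 76.4, 75.4 and 77.2 against 70.6, 75.0, 55.0 and 71.8, a change of 0.18 that was not called (adjusted p = 0.41). Together with Pttg1 these were the 3 genes wholly above the controls, an arrangement found in 7.33% of all genes, and 3 genes (Incenp, Kif23 and Cenpf) lay wholly below them, against 6.43%. The medians of tumours 1 to 4 were -0.13, -0.30, -0.08 and -0.34, and tumour 4 had the lowest value of the 4 in 38 genes, tumour 2 in 19, tumour 3 in 3 and tumour 1 in 0. Shares of all genes were not counted for these lowest values. The column totals of tumours 1 to 4 were 930049, 920361, 1080240 and 879385, in the same order as the medians. Whether scaling had a part in these medians was not tested. Since the columns are not tied to mice, differences between mice and between tumours of a mouse cannot be told apart.

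Compared with day 18, day 27 had 9 of 60 genes lower by limma, where 6.86% of all genes were called lower, and 0 higher, where 3.19% were, with a median of -0.27. Plk1, at 55.5, 48.8, 58.3 and 42.1 on day 27 and at 83.2 and 91.3 on day 18, changed most, by -0.77 (SE 0.15, adjusted p = 0.011). Birc5 changed by -0.67 (SE 0.16, adjusted p = 0.025), Ccnb2 by -0.62 (SE 0.14, adjusted p = 0.024) and Cdc20 by -0.52 (SE 0.13, adjusted p = 0.0306). The others were Kif4, Aurka, Melk, Cdca8 and Kif22, with changes between -0.52 and -0.44. Without either tumour of day 18 the count was 0, without tumour 2, 3 or 4 of day 27 it was 1, 13 and 5, and with day 27 averaged in pairs it was 1 to 4. Against day 3 of treatment 59 of 60 genes were higher on day 27, where 24.6% of all genes were, with a median of 1.61. The exception, Pttg1, had a change of -0.31 (adjusted p = 0.245). Day 18 against day 6 gave 0 calls by limma in 60 genes, with 7 at an unadjusted p under 0.05 (13.8% of all genes), where 0.145% of all genes were called lower and 1.36% higher.

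**Figure D5:**
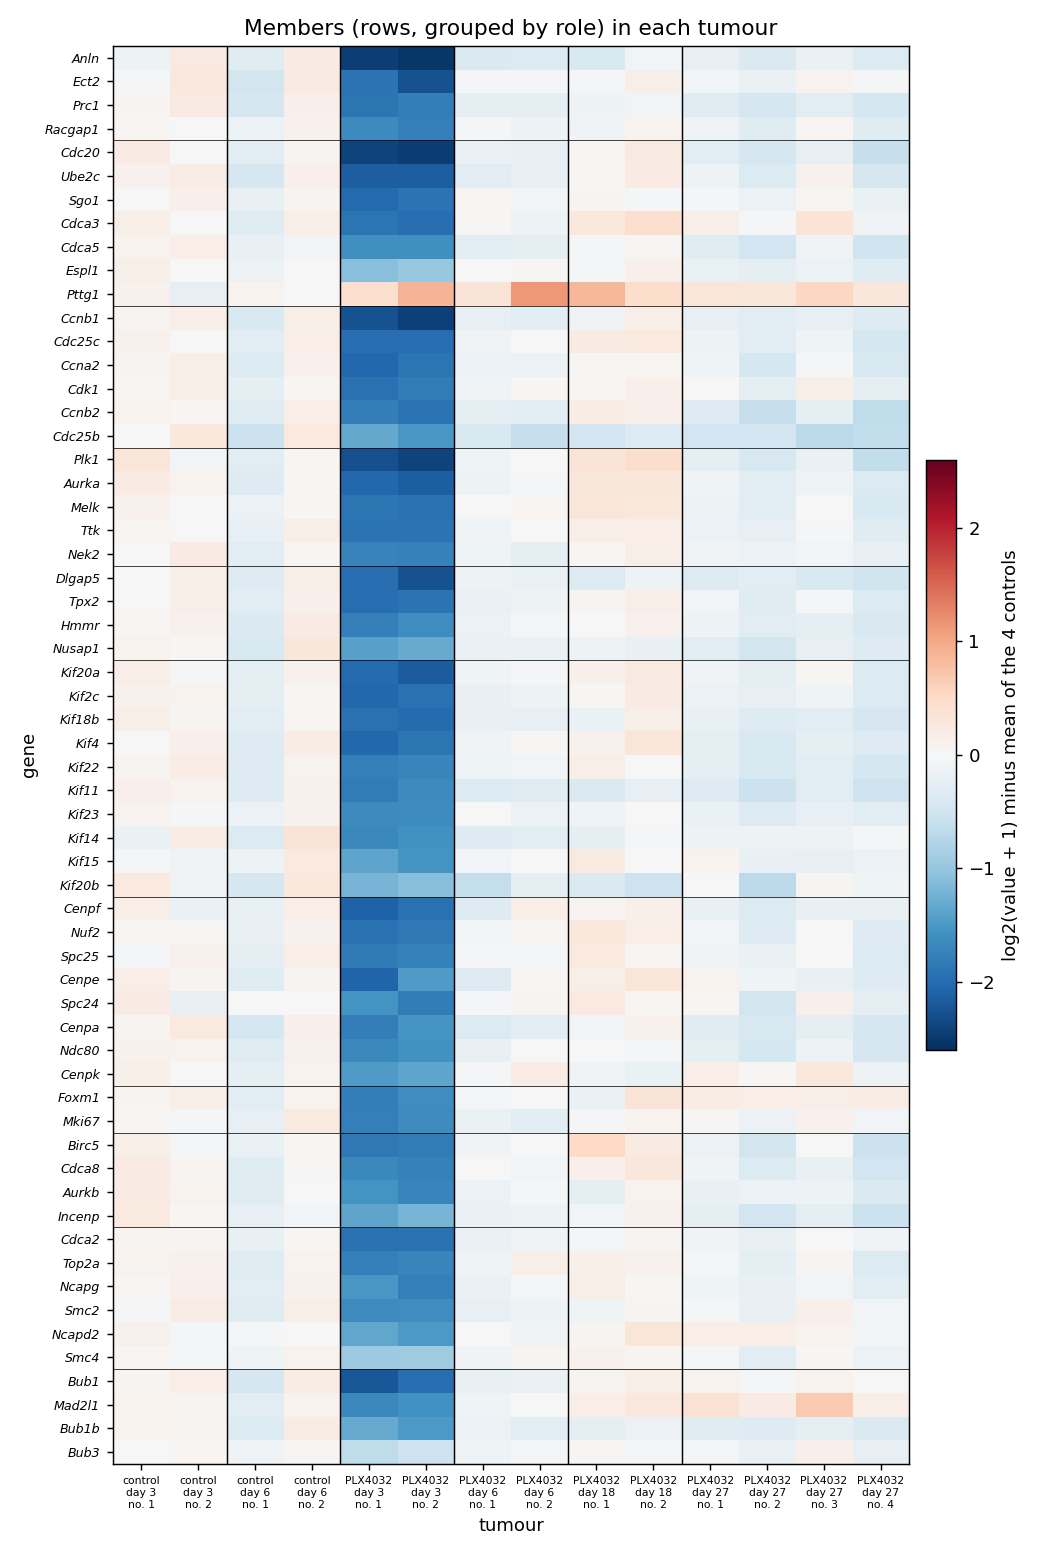
Log2(value + 1) minus the mean of the 4 controls for each of the 60 genes (rows, by role) in each tumour (columns). Blue is below and red above the controls. The PLX4032 tumours of day 3 form a dark blue block broken by Pttg1 and, more faintly, Bub3 and Smc4, while control tumour 1 of day 6 and tumours 2 and 4 of day 27 are pale blue in most rows.

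Genes of the same biology outside the module moved with it on day 3. Of 74 other mitotic genes 70 were lower and Lin37 was higher, with a median of -1.45. Of all genes 20.8% were called lower and 24.9% higher on that day. The smallest p-values belonged to Zwilch, a subunit of the kinetochore RZZ complex, at -2.02 (SE 0.11, adjusted p = 5.14e-06), Cenpn, a centromere protein, at -1.75 (SE 0.10, adjusted p = 5.44e-06), and Kifc1, a minus-end kinesin, at -1.92 (SE 0.12, adjusted p = 5.61e-06). Lin37, a core subunit of MuvB, rose by 0.50 (SE 0.09, adjusted p = 0.00172). Of 35 G1/S and DNA replication genes 33 were lower and 0 higher, with a median of -1.28. On day 18 that list had 4 genes called higher (Ccne1, Mcm3, Rrm1 and Rrm2, named after their values were seen) and a median of 0.29. Of all genes 5.42% were called higher on day 18.

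Cell cycle brakes were mixed. Of 12 genes 6 were higher and 1 lower on day 3, with a median of 0.19, where 24.9% of all genes were called higher and 20.8% lower. Btg2, an antiproliferative gene, was at a mean of 40.1 in the PLX4032 tumours and 6.33 in the controls, a rise of 2.47 (SE 0.41, adjusted p = 0.000894). Cdkn1c, which encodes the CDK inhibitor p57, rose by 2.05 (SE 0.34, adjusted p = 0.000958), and Rb1, which encodes the retinoblastoma protein, by 0.80 (SE 0.15, adjusted p = 0.00182). Ccng1 fell, at -0.57 (SE 0.14, adjusted p = 0.00804).

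Markers of several host cell types and of melanocytes moved on the same day, when 24.9% of all genes were called higher and 20.8% lower. Keratinocyte markers summed to 12.2 to 20.3 in the PLX4032 tumours of day 3 and 14.4 to 43.0 in the controls, with 0 of 3 called. Erythroid markers summed to 255.9 to 792.5 against 51.3 to 416, with 0 of 4 called. The summed values of 14 leukocyte markers ran from 3666 to 4982 in the PLX4032 tumours of day 3 and from 355.1 to 1141 in the controls, and 13 of the 14 were called higher. Ptprc, the pan-leukocyte gene CD45, was at 121 and 183 in the PLX4032 tumours and between 6.01 and 29.2 in the controls. Of 10 fibroblast markers 8 were higher and 2 lower, with sums of 6475 to 8694 in the PLX4032 tumours and 4110 to 5095 in the controls, and 10 of 10 endothelial markers were higher, with sums of 251.1 to 364 against 93.4 to 226. Skeletal muscle markers summed to 800.5 to 906 in the PLX4032 tumours of day 3 and to 42.9 to 324 in the controls, with 10 of 10 above 0 and 1 called higher. Adipocyte markers summed to 96.7 to 146 against 24.3 to 72.7, with 4 of 9 called higher. The 6 melanocyte markers summed to 39.5 to 57.1 against 10.5 to 22.0, and 5 of them were called higher, Mitf at 6.55 and 10.4 in the PLX4032 tumours and at 2.76, 4.73, 2.96 and 3.80 in the controls. The 3 Y-linked genes with a value, which the female host cannot supply, summed to 20.3 to 22.8 in the PLX4032 tumours of day 3 and to 30.7 to 44.7 in the controls. On day 6 the module stood at tumour medians of -0.13 and -0.07. The Y-linked sums were again low, at 14.3 and 25.0. Leukocyte sums were 1583 and 2510, below day 3 and above the controls, with 7 of 14 called higher. Endothelial sums were 149 and 160, with 0 of 10 called. Fibroblast sums were 5830 and 4182, with 0 of 10 called higher and 1 lower. Skeletal muscle markers summed to 323 and 511 and adipocyte markers to 48.7 and 53.1, with 0 of 10 and 1 of 9 called higher. Of all genes 4.49% were called higher on day 6 and 1.43% lower. On day 18 adipocyte markers summed to 2693 and 2722, against 24.3 to 72.7 in the controls, and skeletal muscle markers to 45.9 and 1819, against 42.9 to 324. Fibroblast sums on day 18 were 7783 and 6563, with 4 of 10 called higher, where 5.42% of all genes were. Leukocyte sums were 1887 and 1123, with 0 of 14 called, and endothelial sums 204 and 200, with 1 of 10 called higher. The Y-linked sums were 22.5 and 42.2, and the module stood at tumour medians of 0.04 and 0.11. On day 27 the Y-linked sums were 22.6, 46.2, 29.2 and 46.8 in tumours 1 to 4, and the leukocyte sums 513.1, 611, 679.9 and 952, against 355.1 to 1141 in the controls. The part of host cells in the day 3 result was not tested.

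Counts over all genes depended on how the tumours were scaled. Quantile normalisation moved the median of all genes on day 3 by over 0.1, to -0.15, and gave 4932 genes lower and 3143 higher, against 3302 and 3947 as deposited. The module then had 59 genes lower, Pttg1 higher and a median of -1.91. On day 6 the split moved to 471 lower and 718 higher, against 226 and 711, and on day 18 to 850 and 694, against 396 and 858. Between day 27 and day 18 it moved to 840 lower and 1212 higher, against 1087 and 505, and between day 27 and day 3 to 3480 and 5501, against 4341 and 3893. Median-of-ratios scaling gave 558 lower and 723 higher on day 18, and 927 and 683 between day 27 and day 18. Of the 60 genes 18 share exon sequence with another annotated gene, 15 of them with a gene on the other strand, among them Plk1, Cdc20, Ube2c and Kif22. The sources used here do not say whether counting used strand, so how reads from the shared stretches were assigned is unknown.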

How the data were processed

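Frozen tumours (14) gave total RNA by Trizol for libraries made with a TruSeq RNA kit, per the labels. For each gene symbol the authors deposited a signal that the table names TPM, with column sums from 879385 to 1084401. TPM would have 1 common sum, so how the deposited signal was rescaled is unknown, and the test planned for TPM was kept. Tools named in the submitters' processing notes are kallisto and sleuth, with mm10 as the genome and no versions. Depth per sample is unknown. Column names give the group but not the animal, so tumour numbers are only names. Within groups, log2 values correlated at 0.962 to 0.99 (Pearson), and no column repeated another. Nothing states that tumours of a group are independent beyond the animal numbers, so p-values cover only their spread, which may be technical.

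From the table, log2(value + 1) was fitted for 15841 genes at 1 or more in at least 2 tumours with limma 3.58.1 in R 4.3.3, on 6 group means with the trend option and 8 residual degrees of freedom. Tests were 2-sided, adjusted by Benjamini-Hochberg over all genes, with a threshold of 0.05. Each treated day was set against the mean of both control groups. If a group was left with a lone tumour, that tumour was assumed to vary like the other groups. The steps were tested on simulated data. Gene positions come from GENCODE M21 (GRCm38, as mm10), and promoter windows from RefSeq on GRCm38.p6.

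The members and gene lists were chosen with earlier results of these data known. Values in every tumour are given for the most abundant member of each role, the 3 largest and 3 smallest falls of day 3, members called on a later day (up to 5 per day) and Mki67. Other members are given by changes and counts, and Mad2l1 was added for its values. From the other lists, the 3 genes with the smallest day 3 p and those called against the list's median were named, except where stated. For G1/S and DNA replication only counts are given for day 3, and of the brakes 3 of those that rose are named. Marker lists are described and not tested as sets. Alternatives were other pseudocounts, filters, scalings, variance models, samples and controls.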

Additional observations from a re-analysis of the deposited data

Results flagged for a closer look

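Pttg1 stood out among the 4 tumours of day 27, where 1 tumour was at 41.3 and the others between 34.9 and 35.5. The gap was 0.907 of the range, above Dixon's 95% critical value for 4 samples, and it was the 1 such case among 20 named genes, a rate near the 1 in 20 that chance gives.

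The effect of PLX4032 on day 6 lay above that on day 3 for 58 of 60 genes, each day against its own controls, by limma's test of the difference. Of all genes 6.06% were called higher by the same test. In log2 units the difference was 2.05 for Cdk1, 2.54 for Plk1, 2.47 for Cdc20, 2.23 for Anln, 2.19 for Ube2c, 1.98 for Top2a, 1.94 for Tpx2, 1.92 for Kif22, 1.90 for Foxm1 and 1.90 for Birc5. It was 1.75 for Ccnb2, 1.65 for Cenpa, 1.63 for Kif11, 1.61 for Kif23, 1.47 for Mki67, 1.42 for Incenp, 1.22 for Cdc25b, 0.95 for Smc4 and 0.59 for Bub3.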

How the results depend on the processing

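Of 364 counts recomputed under an alternative, 333 were within 1.5 times the reported count. The count of 59 genes lower on day 3 was the same under every alternative run, with medians from -1.91 (quantile normalisation) to -1.49 (pseudocount 5). The day 27 results depended on the settings, and the cause was not tested. The 5 genes lower than the controls became 3 with any value above 0 kept, 1 without a variance trend, and 0 with the compared groups only, with the day 6 controls only, or with the day 27 tumours averaged in any of the 3 pairings. Quantile normalisation called 1 gene higher where 0 were. The 9 genes lower on day 27 than on day 18 became 5 with quantile normalisation, 17 with array weights, and 4, 1 and 3 with tumour 1 averaged with 2, 3 and 4. Leaving out each tumour in turn gave ranges of 0 to 15 (day 27 lower than the controls), 0 to 13 (day 27 lower than day 18), 0 to 7 (day 6 lower), 0 to 2 (day 18 lower), 0 to 1 (day 6 higher) and 0 to 1 (day 3 higher). The 7 on day 6, the 2 on day 18 and the 15 on day 27 all arose without control tumour 1 of day 6, and the 1 higher on day 6 was Pttg1 without PLX4032 tumour 1 of day 6. Of the named genes, values on day 3 lost significance in 3 cases, all of Pttg1, and on day 27 in 70, and no direction reversed in a called value. No paired analysis was possible because the columns carry no animal number. Precision is limited by 2 to 4 tumours a group and by an unknown depth.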
